A study of Mus musculus with 5 samples.

Results

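Classical monocytes that carry Ly6c2 and Ccr2 were selected cell by cell from single-cell RNA-seq libraries of mouse lung. A cell entered the set with at least 3 unique molecular identifiers (UMIs, each marking 1 captured mRNA molecule) of Ly6c2 and at least 1 of Ccr2. It also had none of Ms4a7, Treml4, Flt3, Siglech, Cd3e, Cd79a and Car4, and at most 2 summed over C1qa, C1qb and C1qc. Barcodes were kept if they had between 300 and 8000 detected genes, between 800 and 60000 UMIs, and less than 15% of UMIs from mitochondrial genes. Of the 44772 kept barcodes, 459 met the conditions. They were 53 of 9238 barcodes in the sham library, 352 of 8004 at day 3, 44 of 9493 at day 7, 8 of 7757 at day 14 and 2 of 10280 at day 28. The cells were thus chosen on measured UMIs, and the levels of the 12 genes in the rule are given only as a description.

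All 5 libraries came from Ms4a3-CreER;R26-tdT mice on a mixed C57BL6/129 background. The study as a whole used adults of both sexes from 7 weeks of age, and the sex behind each library is not given. In these mice Ms4a3, a gene of granulocyte and monocyte progenitors, drives a tamoxifen-dependent Cre recombinase that switches on a tdTomato reporter. The sham mice received PBS and the others bleomycin, a DNA-breaking drug that injures and scars the lung, through the trachea, and lungs were taken 3, 7, 14 or 28 days later. Blood was flushed out with PBS before digestion, red cells were lysed, and the suspension was prepared for immune cells. Each condition is 1 library, and the number of mice behind a library is not given in the sources used here. No difference between time points could therefore be tested, and every interval below is a 95% interval that covers counting error only.

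Classical monocytes leave the bone marrow through the chemokine receptor CCR2, circulate for a short time and enter injured tissue, where they can become macrophages. Ly6C2 is a surface protein of the circulating classical form, and nonclassical monocytes, which patrol the vessel wall, carry little of it. Type I interferons act through the receptor IFNAR and a complex of transcription factors that holds IRF9, and the response of a monocyte to them is a set of antiviral genes. The data allow 2 questions to be asked of these cells: how many were captured at each time, and how their RNA differed between the sham and day 3 libraries.

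The chosen cells held 504994 UMIs in sham and 3662375, 410810, 94859 and 5808 at days 3, 7, 14 and 28. Their median depth was 9596 UMIs per cell in sham and 10468 at day 3, and the median mitochondrial share was 3.75% and 2.39%. A level is given as CPM, which means a gene's UMIs in all chosen cells of a library, per 1000000 of their UMIs. Any pair of libraries had between 22 and 41 barcode sequences in common.

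The label was checked against 14 genes of classical monocytes that the rule did not use. The median cell had UMIs of 13 of the 14 in sham and of 11, 9 and 13 at days 3, 7 and 14. Day 3 had a longer lower range, with a 25th percentile of 7 and a 10th percentile of 4, against 12 and 5.2 in sham. A part of the day 3 cells therefore carried few of these markers. Lyz2, the lysozyme of myeloid cells, was detected in 53 of 53 sham cells and 338 of 352 day 3 cells. A Lyz2 UMI was also found in 368 of 377 sham B cells, defined below. Its detection therefore does not by itself set monocytes apart from other cells of the sham library. Both cells of day 28 went against the label, since they carried UMIs of at least 3 of 6 natural killer (NK) cell markers and their median was 3 classical markers. The day 28 cells are therefore left out of what follows. Across the other libraries at least 3 NK markers were found in 7 sham cells, 37 day 3 cells, 2 day 7 cells and no day 14 cell. All 6 NK markers were measured, the one with most UMIs was Gzma, and their summed level was 1283 CPM in sham and 1393, 122 and 0 CPM at days 3, 7 and 14. At least 10 UMIs of the neutrophil genes S100a8 and S100a9 were held by 3 cells each in sham, at day 3 and at day 7. The 10 neutrophil markers summed to 3465 CPM in sham and 478, 1592 and 179 CPM at days 3, 7 and 14, and S100a9 was the largest. A single sham cell held at least 10 UMIs of Elane and Mpo, the granule enzymes of immature neutrophils and monocytes. Cd209a, a gene of monocyte-derived dendritic cells, had a UMI in 1 sham cell, 12 day 3 cells, 6 day 7 cells and 1 day 14 cell. At least 2 of 10 alveolar macrophage markers had a UMI in 34 of 53 sham and 28 of 352 day 3 cells. Their summed level was 238 CPM in sham and 82.2, 195 and 190 CPM at days 3, 7 and 14, with Ear2 the largest and none at 50 CPM in sham or at day 3, and their part in the results below was not tested. Leaving the alveolar macrophage markers aside, 12 sham and 52 day 3 cells had an NK, neutrophil, granule or Cd209a sign. So did 10 day 7 cells and 1 day 14 cell, and values without these cells are given where they differ most. A wider count took cells with at least 2 markers of another type, such as T, endothelial or alveolar macrophage cells. Without those, 15 of 53 sham, 173 of 352 day 3, 11 of 44 day 7 and 4 of 8 day 14 cells were left.

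The values on both sides of the rule's limits were as follows. At day 3 the 343 cells with 4 or more Ly6c2 UMIs had 6133 CPM of Plac8, a monocyte gene, whereas the 9 cells with exactly 3 had 675 CPM. The 21 cells with exactly 2 Ly6c2 UMIs, which lay just outside, had 358 CPM of Plac8 and 9011 CPM of Gzma, a cytotoxic granule enzyme of NK cells. In sham the 6 cells with exactly 3 Ly6c2 UMIs had 2713 CPM of Plac8 and the 47 with 4 or more had 3122 CPM. Another 80 day 3 cells missed the rule by a single Ms4a7 UMI. A further 151 day 3 cells missed it only through Treml4, a gene of nonclassical monocytes, and these had 8011 CPM of Plac8, 456 CPM of Ace and 3653 CPM of Ly6c2. Only 4 sham cells missed it in this way. At day 3, 235 cells missed the rule only because they had no Ccr2 UMI. These had a median of 4618 UMIs, with 1574 CPM of Plac8 and 3483 CPM of Isg15. In sham 19 cells missed it through Ccr2, with 150 CPM of Plac8.

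In sham the selected cells were 0.574% of kept barcodes (0.430 to 0.750%). They made up 4.40% at day 3 (3.96 to 4.87%). Day 7 had 0.463% (0.337 to 0.622%) and day 14 had 0.103% (0.0445 to 0.203%). At least 3 Ly6c2 UMIs alone were held by 4115 of the 8004 kept day 3 barcodes and 248 of the 9238 in sham, so most day 3 barcodes with Ly6c2 were left out by the further conditions. The day 3 share lay above the intervals of the other libraries, those of sham and day 7 overlapped, and that of day 14 lay below both. Without cells with 2 markers of another type, the day 14 interval (0.0141 to 0.132%) overlapped those of sham (0.0909 to 0.268%) and day 7 (0.0579 to 0.207%). The condition on Car4 removed a larger part of the sham cells. Car4, a gene of alveolar macrophages and capillary endothelium, had a UMI in 32.1% of sham B cells and in 8.13% of day 3 B cells. B cells here are barcodes with at least 3 Cd79a UMIs, Ms4a1, no Cd3e and no Ly6c2. They serve as a background for RNA of other cells, and it may be too low at day 3, since only 418 of 695 day 3 barcodes that met the conditions on the other genes had no Ly6c2 (377 of 383 in sham). Where this changes a reading, the level without the Ly6c2 condition is given too. B cells are not known to make it, and the part of free RNA in the sham cells left out was not tested. Without this condition the shares were 0.942% in sham (87 cells) and 4.82% at day 3 (386 cells). Barcodes with at least 4000 UMIs were also thinned to 4000, and shallower ones were left out. The shares were then 0.583% in sham (42 of 7198) and 6.72% at day 3 (443 of 6595). A gene at 0 after thinning could have had a UMI before it. Without the cells with NK, neutrophil, granule or Cd209a signs the shares were 0.444% and 3.75%. Day 3 stood above sham in each of these settings. Shares of a suspension also depend on how many other cells were released, and the day 7 library holds no barcode under 4624 UMIs.

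**Figure D1:**
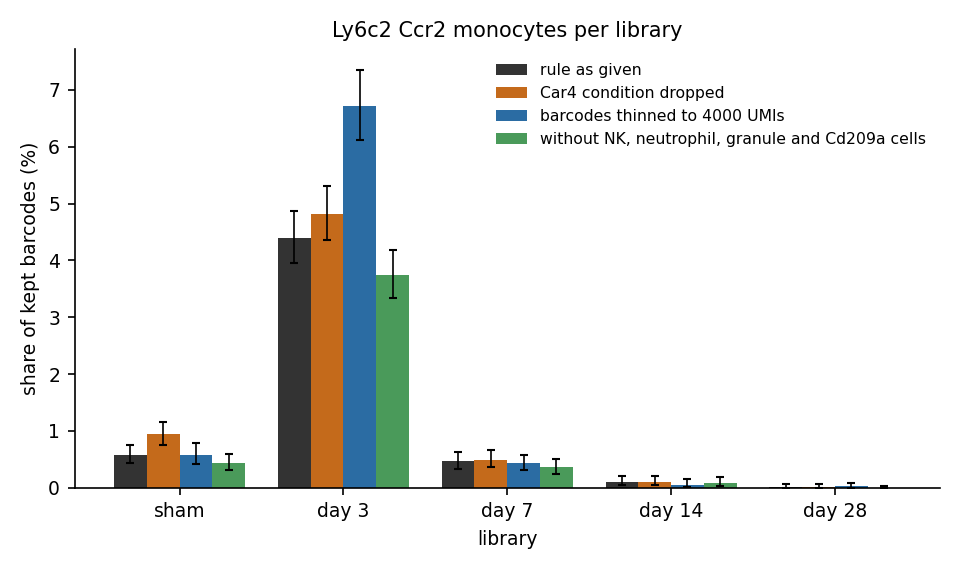
Share of kept barcodes (%) that met the selection rule in each library, under the rule as given and 3 changes to it. Bars are 1 library each and lines are exact binomial 95% intervals; day 3 stands above the other libraries under every setting, and the sham bar moves from 0.574% to 0.942% when the Car4 condition is dropped.

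Genes induced by interferon were higher at day 3 almost without exception. The 3164 genes compared had 50 CPM or more in sham or at day 3. Of these, 331 were at least 2-fold higher at day 3 than in sham, which is 10.5% of those compared, and 123 were at least 2-fold lower, which is 3.89%. The median gene differed by -0.00 on the log2 scale. In the list of type I interferon-induced genes 44 of 46 members were at least 2-fold higher, none was 2-fold lower, and the median member was 2.89 log2 units higher. Because a gene low in sham could reach 50 CPM only by being high at day 3, the same count was made over genes at 50 CPM or more in sham. There 20 of 22 list members were at least 2-fold higher, against 137 of 2740 genes (5%). Summed over the list, the level was 7196 CPM in sham and 34544, 8315 and 3215 CPM at days 3, 7 and 14. Day 3 stood 4 times or more above each of the other libraries.

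The start regions of 4 of these genes are shown because their RNA was among the most different and because they carry the letters that the interferon-activated factor is known to bind. Each line is 300 bases of RefSeq sequence on GRCm38.p6, 5′ to 3′ on the strand of the gene, from 250 bases before its transcription start to 50 after it. The regions are chr4:156200769-156201068 on the minus strand for Isg15, chr19:34583279-34583578 on the plus strand for Ifit3, chr12:26456403-26456702 on the minus strand for Rsad2 and chr5:92348840-92349139 on the minus strand for Cxcl10. Capitals mark GAAANNGAAA, the core of the interferon-stimulated response element, or the same letters on the other strand, TTTCNNTTTC, and overlapping matches run together.
Isg15: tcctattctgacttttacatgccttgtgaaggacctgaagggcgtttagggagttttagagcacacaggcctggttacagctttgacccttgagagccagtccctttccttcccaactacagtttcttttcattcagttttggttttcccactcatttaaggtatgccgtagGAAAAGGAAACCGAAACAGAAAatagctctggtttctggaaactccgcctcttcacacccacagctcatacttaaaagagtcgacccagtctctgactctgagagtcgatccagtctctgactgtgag
Ifit3: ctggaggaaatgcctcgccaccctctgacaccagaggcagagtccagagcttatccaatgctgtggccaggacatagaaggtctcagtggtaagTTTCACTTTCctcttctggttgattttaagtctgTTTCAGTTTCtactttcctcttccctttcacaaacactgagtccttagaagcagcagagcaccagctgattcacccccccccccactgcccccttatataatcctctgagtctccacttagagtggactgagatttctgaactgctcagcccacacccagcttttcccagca
Rsad2: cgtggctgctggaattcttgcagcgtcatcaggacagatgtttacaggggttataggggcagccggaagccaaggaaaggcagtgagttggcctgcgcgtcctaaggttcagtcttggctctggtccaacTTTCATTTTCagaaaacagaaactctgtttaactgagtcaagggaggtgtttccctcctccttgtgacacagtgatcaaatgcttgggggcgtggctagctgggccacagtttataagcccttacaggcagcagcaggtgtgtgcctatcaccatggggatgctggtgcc
Cxcl10: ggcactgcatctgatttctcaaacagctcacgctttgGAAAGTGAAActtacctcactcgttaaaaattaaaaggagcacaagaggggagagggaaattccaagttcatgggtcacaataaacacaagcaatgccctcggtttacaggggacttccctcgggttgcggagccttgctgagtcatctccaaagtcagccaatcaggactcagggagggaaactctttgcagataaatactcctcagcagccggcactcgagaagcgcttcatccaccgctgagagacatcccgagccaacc
The Isg15 region holds 3 overlapping matches, the Ifit3 region 2, and those of Rsad2 and Cxcl10 1 each. Of the 46 measured list members, 34 were found in the RefSeq table, and 19 of these (55.9%) had a match in at least 1 of their start regions, compared with 1079 of all 27025 genes (3.99%). Irf7, Ifit2, Oasl1 and Oasl2 had none in these windows. A match is a run of letters, and no binding was measured here.

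Isg15 encodes a ubiquitin-like protein that is joined to other proteins during antiviral defence. It lies at chr4:156199424-156200818. Its level was 131 CPM in sham (101 to 166) and 2140 at day 3 (2093 to 2188). Day 7 had 166 CPM (128 to 210) and day 14 had 10.5 CPM (0.267 to 58.7). The day 3 level was 16.4-fold that of sham (log2 4.03, 3.69 to 4.41), while day 7 and sham overlapped. It was detected in 22 of 53 sham cells and 327 of 352 day 3 cells. Cells with at least 2000 UMIs were thinned to 2000, and shallower ones were left out. Then 21.2% of sham cells and 76.1% of day 3 cells had a UMI, beside 1.88% and 20% of B cells in the same libraries. Interferon-induced genes were higher at day 3 in B cells too, so their share is not read as a background here.

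Cxcl10, a chemokine that draws activated T cells through CXCR3, gave the largest difference over all selected cells among list members with a sham UMI. It lies at chr5:92346638-92348889. Its level was 11.9 CPM in sham (4.36 to 25.9) and 1853 at day 3 (1809 to 1897). Cxcl10 was at 161 CPM by day 7 (124 to 204), and no UMI was found at day 14, where the interval reaches 38.9 CPM. All 6 sham UMIs came from 1 cell, whereas 164 of 352 day 3 cells had a UMI. The log2 difference of Cxcl10 was 7.28 (6.16 to 8.73), and 1 sham cell sets its size. Without the cells with NK, neutrophil, granule or Cd209a signs it was 7.05 (5.93 to 8.50), below the 7.80 of Slfn4. In B cells the levels were 0.483 CPM in sham and 30.02 CPM at day 3, or 133 CPM at day 3 without the Ly6c2 condition.

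Rsad2 encodes viperin, an enzyme that blocks viral replication. Its level was 35.6 CPM in sham, 994 at day 3, 321 at day 7 and 0 at day 14, a log2 difference of 4.8 between day 3 and sham (4.14 to 5.56). Ifit3, one of the RNA-binding proteins of the IFIT family, was at 37.6 CPM in sham, 894 at day 3, 127 at day 7 and 0 at day 14, a log2 difference of 4.57 (3.93 to 5.30). Both were detected in 5 of 53 sham cells, and in 251 and 294 of 352 day 3 cells. A single sham cell held 66.7% of the sham UMIs of Rsad2 and 47.4% of those of Ifit3, and this was also a cell with S100a8 and S100a9. Without the cells with NK, neutrophil, granule or Cd209a signs the log2 differences were 6.51 (5.29 to 8.13) for Rsad2, with 5 sham UMIs left, and 5.29 (4.41 to 6.35) for Ifit3, with 10 left. Of the remaining IFIT genes, Ifit2 was at 19.8 CPM in sham and 404 at day 3, with 6 of its 10 sham UMIs in the same single sham cell and a log2 difference of 4.35, or 5.53 (4.17 to 7.40) with all cells of those signs left out, where 4 sham UMIs were left. Ifit1bl1 had no UMI in sham and 118 CPM at day 3, at least 19.9-fold higher against a floor of 3 UMIs over the sham cells. With only the 15 sham cells without 2 markers of another type, the same floor gave a log2 difference of at least 1.88 for Ifit1bl1.

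Irf7, the transcription factor that amplifies type I interferon production, was at 192 CPM in sham, 2362 at day 3, 175 at day 7 and 42.2 at day 14, a log2 difference of 3.62 (3.33 to 3.92). Slfn4, a Schlafen family gene of myeloid cells, was at 19.8 CPM in sham, 482 at day 3, 68.2 at day 7 and 0 at day 14. Of the 10 sham UMIs of Slfn4, 8 lay in that sham cell with S100a8 and S100a9, and its log2 difference was 4.61, or 7.80 (5.32 to 13.1) without the cells with NK, neutrophil, granule or Cd209a signs, where 1 sham UMI was left. It was 3.03 once cells with 2 markers of another type were left out. Some list members were already well expressed in sham. Ifi27l2a was at 1897 CPM in sham, 5263 at day 3, 2037 at day 7 and 643 at day 14, and its log2 difference was 1.47. Ly6e, which encodes a small surface protein that restricts viral entry, was at 1499, 3099, 1611 and 643 CPM in the same order, with a log2 difference of 1.05. The 2 members that stayed under 2-fold were Sp100, a nuclear body protein, at 246 and 486 CPM, and Irf9, a transcription factor of the interferon response, at 63.4 and 102 CPM. The scatter of all genes in sham against day 3 shows the list as a group above the line of 2-fold.

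**Figure D2:**
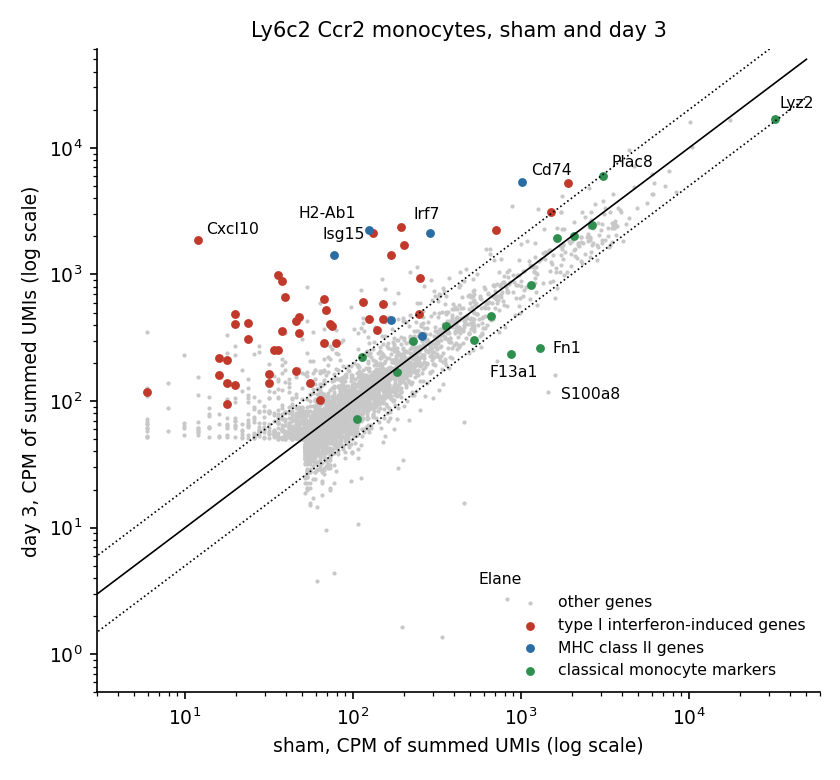
CPM of each gene with at least 50 CPM in either library, sham on the x axis and day 3 on the y axis, both on log scales, in the 53 sham and 352 day 3 cells. The solid line marks equal levels and the dotted lines 2-fold; genes with 0 UMIs are drawn at the floor of 3 UMIs, 44 of 46 interferon-induced genes lie above the upper dotted line, and Fn1 and F13a1 lie below the lower one.

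Per cell, the interferon list took a median of 63.7 of every 10000 UMIs in sham (5.66 to 543 from the lowest to the highest cell) and 284 at day 3 (23.5 to 1018). The medians were 57.6 at day 7 and 33.2 at day 14. Of the 352 day 3 cells 335 (95.2%) lay above the sham median and 314 (89.2%) above the 90th percentile of sham. The ranges overlapped, and 51 day 3 cells exceeded the highest sham cell. That sham cell had 2595 UMIs in all and held 149 UMIs of S100a9 and 73 of S100a8. The next had 14755 UMIs and held all 6 sham UMIs of Cxcl10, 240 of the 504 of Ccl2 and 49 of the 58 of Il1rn.

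**Figure D3:**
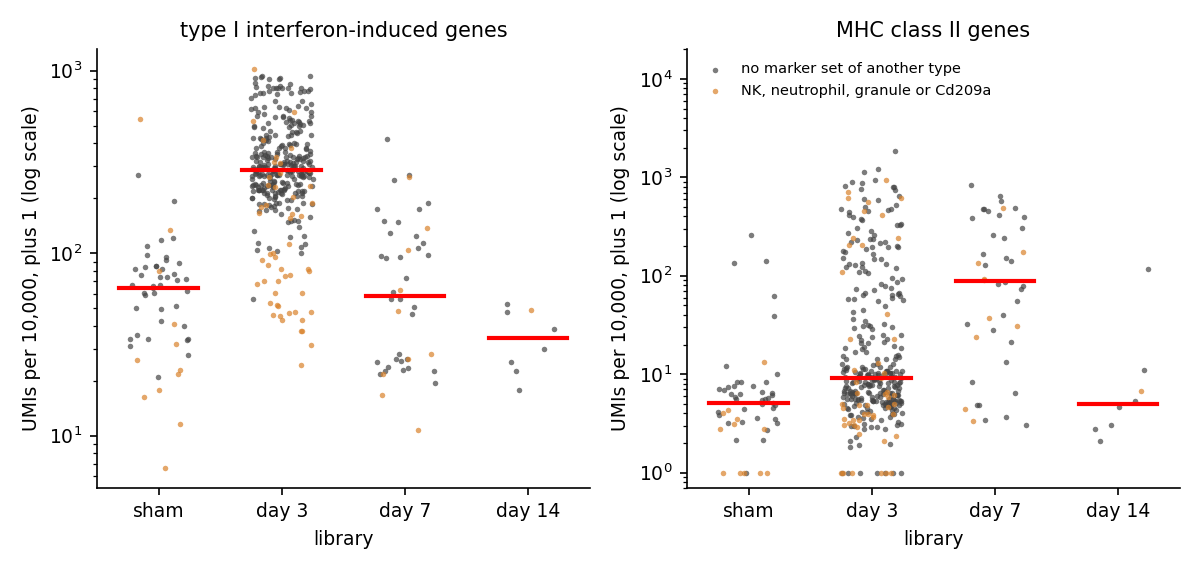
UMIs of the interferon-induced list (left) and of the MHC class II list (right) per 10000 UMIs of each cell, plus 1 on a log scale, by library. Points are cells, red bars medians and orange points the cells with NK, neutrophil, granule or Cd209a signs; the day 3 cells lie higher as a group on the left (median 284 against 63.7 in sham), whereas on the right the day 3 median is 8.05 and a part of the cells reaches 1856.

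Of the ligands looked for, only Ifng had UMIs in the selected cells. Among 20 interferon genes looked for, which were chosen after the data had been seen, no Ifnb1 UMI was found in any of the 459 cells. Ifng had 5 UMIs in the sham cells, 60 at day 3 and 1 at day 7, and part of the cells of sham and day 3 carried NK markers. In the other kept barcodes Ifnb1 had 0 UMIs in sham, 82 at day 3, 12 at day 7 and 0 at days 14 and 28. The corresponding counts of Ifng were 119, 516, 222, 317 and 105. These counts come from very different totals. The monocytes held 504994 UMIs in sham and 3662375 at day 3, whereas the whole libraries held 131210167 and 89769386. Counted against these totals, Ifng per UMI was higher in the selected cells than in the other kept barcodes of both libraries. The library totals also include the selected cells and barcodes that were not kept. At least 3 NK markers were found in 7 sham and 37 day 3 selected cells. Ifng without those cells is not given, so this is not a value for monocytes alone. Of 6 receptors and adaptors compared, 1 was at least 2-fold higher at day 3 and none was 2-fold lower, and their median difference was -0.11. That gene was Jak2, a kinase of the interferon gamma receptor, at 13.9 CPM in sham, 78.6 at day 3, 58.4 at day 7 and 21.1 at day 14. Ifngr1, the ligand-binding chain of that receptor, was at 582, 410, 282 and 759 CPM, and Ifngr2, its partner, at 230, 188, 136 and 190 CPM in the same order. This count and those of the lists that follow stand beside 10.5% higher and 3.89% lower over all genes, and in such short lists a share near these values is no result about the list. A member under 50 CPM in sham entered only by being high at day 3. Each of these lists with a higher member is therefore also counted over its members at 50 CPM or more in sham. At that level 5% of all genes were higher. Jak2 entered in this way, and of the 5 receptors and adaptors at that level in sham none was higher.

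Genes of the response to interferon gamma and of the guanylate-binding protein (GBP) family were also higher at day 3. Of the 13 that reached 50 CPM in sham or at day 3, 12 were at least 2-fold higher, with a median of 1.75, and 5 of the 6 at 50 CPM in sham were among them. Psmb8 and Psmb9 encode subunits of the immunoproteasome, which cuts proteins for presentation to T cells. Psmb8 was at 372 CPM in sham, 936 at day 3, 336 at day 7 and 327 at day 14, a log2 difference of 1.33 (1.12 to 1.55). Psmb9 was at 164 CPM in sham and 458 at day 3. Igtp, an immunity-related GTPase, was at 31.7 CPM in sham and 197 at day 3, and Iigp1, of the same family, had no UMI in sham and 68.5 CPM at day 3, at least 11.5-fold higher. For Iigp1 the floor over the 15 sham cells without 2 markers of another type gave a log2 difference of at least 1.53. The member under 2-fold was Gbp2, at 109 and 172 CPM.

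The interferon-induced genes were higher at day 3 in other cells of the same library as well. In nonclassical monocytes (cells with Treml4 and Ace, 125 in sham and 327 at day 3) 44 of 46 were at least 2-fold higher, where 6.47% of all genes were. Their summed level was 3856 CPM in sham and 24598 at day 3. In T cells 41 of 42 were higher (6.58% of all genes), with 2362 CPM in sham and 16222 at day 3, and in B cells 23 of 25 (3.62% of all genes), with 2690 and 10260 CPM. Isg15 was at 32.5 CPM in sham nonclassical monocytes and 921 at day 3, where the classical cells had 131 and 2140. Day 3 levels of Cxcl10 were 1853 CPM in the classical cells, 382 in the nonclassical cells and 1139 in Ly6c2 cells with Ms4a7, a gene of maturing macrophages. Day 3 Irf7 was 2362, 2251 and 1479 CPM in these classes. The classes were separated by measured genes, so these values are set side by side without a test. In the nonclassical cells Ly6c2 and Plac8 were also higher at day 3 than in sham, as given below. That class may therefore not hold the same cells in sham and at day 3. The part of free RNA in the values of all classes was not tested.

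Genes of antigen presentation were also higher. MHC class II molecules show peptides to CD4 T cells and are carried by dendritic cells, B cells and some macrophages. Of 6 class II genes compared, 5 were at least 2-fold higher at day 3, none was lower, and their median difference was 2.65. All 6 were at 50 CPM or more in sham. H2-Ab1, the beta chain of I-A (chr17:34257689-34269419), was at 125 CPM in sham (95.9 to 160) and 2229 at day 3 (2181 to 2277). Day 7 had 3213 CPM of H2-Ab1 (3042 to 3391) and day 14 had 253 CPM (162 to 376). The day 3 level was 17.9-fold that of sham (log2 4.16, 3.8 to 4.54), and day 7 stood above day 3. The log2 difference of H2-Ab1 was 2.60 without cells with 2 markers of another type. H2-Eb1, a chain of I-E, was at 77.2, 1413, 2191 and 42.2 CPM in sham and at days 3, 7 and 14. H2-Aa, the alpha chain of I-A, was at 287, 2142, 3345 and 369 CPM, and Cd74, the chaperone of class II, at 1020, 5401, 8568 and 970 CPM. The sixth gene, H2-DMa, differed by 0.33, with 257 CPM in sham and 324 at day 3.

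The class II list differed most in its upper range. It took a median of 4.14 of every 10000 UMIs in sham cells and 8.05 in day 3 cells, but at day 3 the upper quartile was 56.5, the 90th percentile 301 and the highest cell 1856. Of 352 day 3 cells 269 (76.4%) lay above the sham median and 129 (36.6%) above the 90th percentile of sham. H2-Ab1 was detected in 7 of 53 sham cells and 188 of 352 day 3 cells, and 1 sham cell held 41.3% of its sham UMIs. At day 7 the median was 86.8. The 8 dendritic cell markers summed to 37.6 CPM in sham and 119, 202 and 10.5 CPM at days 3, 7 and 14, with Clec10a the largest and none at 50 CPM in sham or at day 3. Without the cells with NK, neutrophil, granule or Cd209a signs the median of the class II genes was 2.25. It was 1.504 without cells with 2 markers of another type, and 1.62 with 4 of 6 higher on barcodes thinned to 4000 UMIs. After thinning to 2000 UMIs, H2-Aa was detected in 7.69% of sham, 31.99% of day 3 and 65.9% of day 7 cells. In nonclassical monocytes none of 6 class II genes was 2-fold higher (6.47% of all genes were), and H2-Ab1 was at 866 CPM in sham and 650 at day 3. As said above, this class may not hold the same cells in both libraries. In T cells, which are not known as a source of these RNAs in the mouse, 5 of 6 were 2-fold higher at day 3 (6.58% of all genes were) and the summed level was 845 CPM in sham, 2109 at day 3 and 10654 at day 7, against 1949, 11981 and 18230 CPM in the monocytes. The part of free RNA in the class II levels was not tested.

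**Figure D4:**
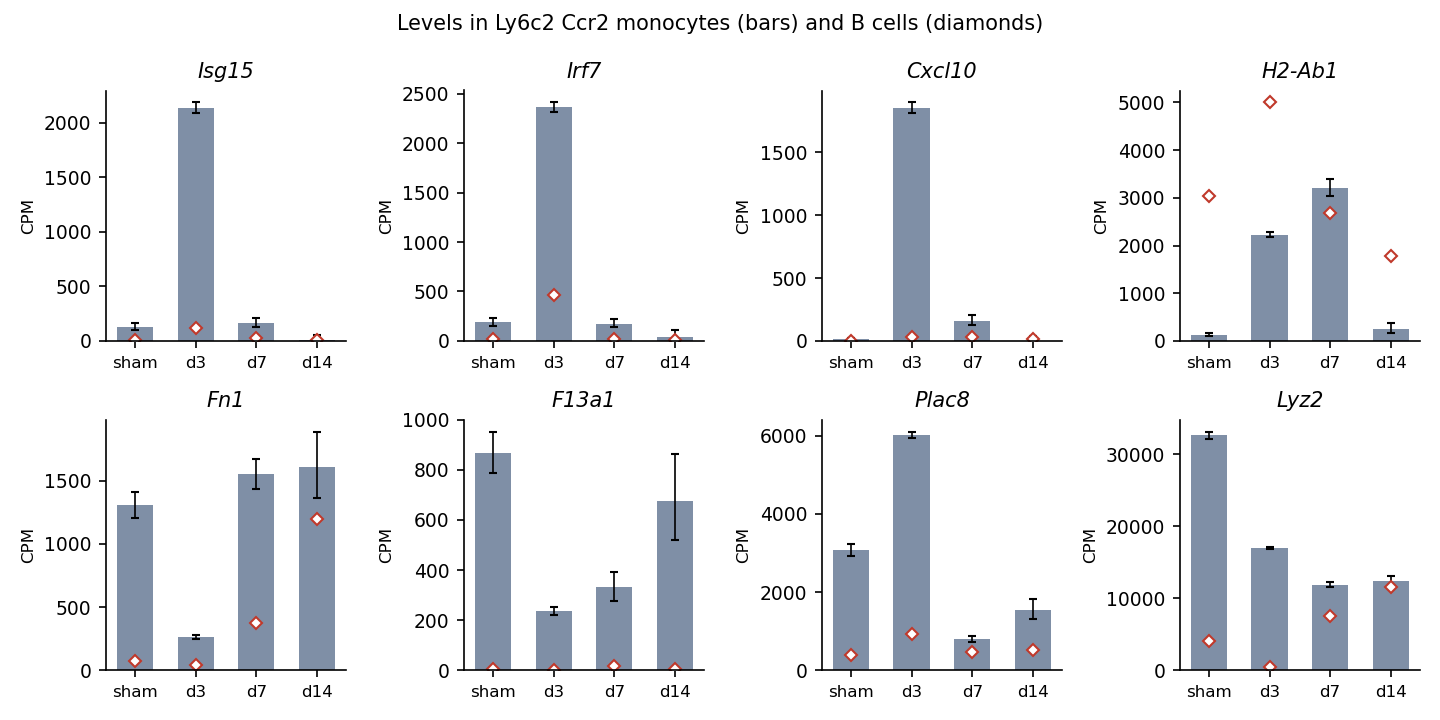
CPM of 8 genes in the selected monocytes (bars with exact Poisson 95% intervals) and in B cells of the same library (diamonds), for sham and days 3, 7 and 14. B cells carry class II themselves, and interferon-induced genes were higher in them at day 3. The diamonds of H2-Ab1, Isg15, Irf7 and Cxcl10 are therefore not read as a background. Isg15, Irf7 and Cxcl10 are highest at day 3, Cxcl10 is higher at day 7 than in sham (161 against 11.9 CPM), H2-Ab1 is higher at days 3 and 7 than in sham, Fn1 and F13a1 are lowest at day 3, and the B cell levels of Fn1 and Lyz2 at day 14 (1198 and 11548 CPM) come near those of the monocytes.

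Among chemokine ligands, which recruit further leukocytes, 6 of 12 were at least 2-fold higher at day 3 and 1, Ccl6, was 2-fold lower. Of the 9 at 50 CPM or more in sham 3 were higher (5% of all such genes were). The median difference of the 12 was 1.13. Ccl6 was under 2-fold, at -0.93 on the log2 scale, with at least 5 Ly6c2 and 2 Ccr2 UMIs. Cxcl2, which attracts neutrophils, was at 53.5 CPM in sham, 798 at day 3, 3459 at day 7 and 73.8 at day 14, against 220, 77.9, 1077 and 598 CPM in B cells. The sham and day 14 levels were therefore below those of B cells, and those of days 3 and 7 above. Ccl2, the ligand of CCR2, was at 998 CPM in sham, 1744 at day 3, 1517 at day 7 and 506 at day 14, a log2 difference of 0.81. This value ran from 0.38 with at least 5 Ly6c2 and 2 Ccr2 UMIs to 1.54 without cells with 2 markers of another type, and was 1.17 without the Car4 condition and 1.11 as the mean of cells, so Ccl2 passed 2-fold in 3 of the settings. A single sham cell held 47.6% of the sham UMIs of Ccl2. Ccl12, a second CCR2 ligand of the mouse, was at 17.8 CPM in sham and 242 at day 3, and Cxcl16, the ligand of CXCR6, at 39.6 and 342 CPM. Ccl5, which attracts T cells and is also made by NK cells, was at 762 CPM in sham and 1320 at day 3, a log2 difference of 0.79. Without the cells with NK, neutrophil, granule or Cd209a signs the difference in Ccl5 was 4.89 (3.53 to 6.77), with 4 sham UMIs left.

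Chemokine receptors went both ways, with 2 of 5 at least 2-fold higher and 1 lower. All 5 were at 50 CPM or more in sham. Ccrl2, a receptor that holds the attractant chemerin at the surface, was at 111 CPM in sham and 375 at day 3. Cx3cr1, the fractalkine receptor that rises as monocytes take the nonclassical form, was at 214 CPM in sham and 71.3 at day 3, a log2 difference of -1.59 (-1.91 to -1.25). Ccr1 was at 141 and 240 CPM, under 2-fold, but reached 1.03 on the log2 scale without cells with 2 markers of another type. Ccr2 itself was used by the rule, and its levels were 1129 CPM in sham, 671 at day 3, 745 at day 7 and 1033 at day 14. For Ly6c2 these were 1127, 4874, 1005 and 548 CPM, and its close paralog Ly6c1, whose reads may be shared with it, was at 57.4 CPM in sham and 352 at day 3. Ly6c1 is also a marker of lung capillaries. The 6 endothelial markers summed to 67.3 CPM in sham and 414 at day 3, most of it Ly6c1, and at least 2 of them had a UMI in 2 sham and 67 day 3 cells.

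Of 12 adhesion molecules, with which monocytes hold to and cross the vessel wall, 2 were at least 2-fold higher (10.5% of all genes were) and none was lower, with a median of 0.20. Both entered through day 3, and of the 10 at 50 CPM or more in sham none was higher. Icam1, a ligand of beta-2 integrins, was at 19.8 CPM in sham and 72.9 at day 3, and Itgax, the CD11c integrin chain, at 19.8 and 51.6 CPM. The log2 difference of Itgax was 1.38, and 0.65 when the Car4 condition was dropped. Cd44, the hyaluronan receptor, was at 406 and 556 CPM, and Itgb2, the shared beta-2 integrin chain, at 426 and 435 CPM.

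Of 5 Fc receptors 2 were at least 2-fold higher, with a median of 0.77, and of 6 complement genes 3, with a median of 0.82, where 10.5% of all genes were. Over members at 50 CPM or more in sham it was 1 of 4 Fc receptors and none of 3 complement genes, where 5% of all genes were. The complement median was -0.09 without cells with 2 markers of another type, 0.26 without the cells with NK, neutrophil, granule or Cd209a signs, 0.18 with at least 5 Ly6c2 and 2 Ccr2 UMIs, 0.20 on thinned barcodes and 0.46 without the Car4 condition, so its direction depended on the selection. Fcgr1, the high-affinity IgG receptor, was at 111 CPM in sham (83.8 to 144), 748 at day 3 (720 to 776), 178 at day 7 and 84.3 at day 14, a log2 difference of 2.75 (2.37 to 3.16). Fcgr1 was detected in 19 of 53 sham and 300 of 352 day 3 cells, and 1 sham cell held 44.6% of its sham UMIs. Fcgr4 was at 17.8 CPM in sham and 62.2 at day 3, whereas Fcer1g, the signalling chain shared by these receptors, was at 3087 and 3785 CPM. Cfb, the complement factor B of the alternative pathway, was at 19.8 CPM in sham and 231 at day 3 (log2 3.55, 2.66 to 4.61), with 60% of its sham UMIs in 1 cell. C3ar1, the receptor of the complement fragment C3a, was at 19.8 and 106 CPM, and C3 itself at 176 and 212 CPM. In the Ms4a family, of membrane proteins that cluster with Fc receptors, 2 of 6 genes were at least 2-fold higher and 1 was lower. All 6 were at 50 CPM or more in sham, and without the Car4 condition none was lower. The higher genes were Ms4a4c, at 711 CPM in sham and 2241 at day 3, and Ms4a6d, at 220 and 1039 CPM. Ms4a6c, a marker of monocytes in this family, was at 1648 and 1926 CPM.

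Inflammatory cytokines were mixed. Il1b, the central cytokine of the inflammasome, was at 2055 CPM in sham, 2078 at day 3, 2892 at day 7 and 917 at day 14. The day 3 to sham difference was 0.02 (-0.08 to 0.11). Tgfb1, which drives matrix production by fibroblasts, was at 477 and 480 CPM in sham and at day 3 (0.01, -0.19 to 0.21). Il18, another inflammasome cytokine, was at 41.6 and 117 CPM. Il1rn, the IL-1 receptor antagonist, was at 115 and 451 CPM, but 1 sham cell held 84.5% of its sham UMIs. The log2 difference of Il1rn, 1.97, ran from 1.53 to 5.51 over the settings. In all 3 of 9 list members were at least 2-fold higher and 1, Ptgs2, the inducible cyclooxygenase, was lower, at 200 CPM in sham and 92.0 at day 3. Ptgs2 was under 2-fold in 4 settings, with the smallest difference, -0.66, on thinned barcodes. Of the 8 list members at 50 CPM or more in sham 2 were higher, and the median of the 9 was 0.02, or 0.84 without cells with 2 markers of another type. Of 8 pattern recognition receptors only Clec4n, which encodes Dectin-2, passed 2-fold, at 81.2 and 177 CPM. It was 1 of 6 members at 50 CPM or more in sham. Cd14 was at 1248 and 1011 CPM and Tlr2 at 311 and 302 CPM.

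Of the 14 markers of the classical monocyte, none was 2-fold higher at day 3 and 2 were 2-fold lower, with a median of -0.28. Without cells with 2 markers of another type 3 were 2-fold higher and 2 lower, with a median of -0.02. Their summed level was 47393 CPM in sham, 32460 at day 3, 20766 at day 7 and 23972 at day 14. Fn1, which encodes the matrix protein fibronectin (chr1:71585520-71653200), was at 1305 CPM in sham (1207 to 1409) and 260 at day 3 (244 to 278). Day 7 had 1551 CPM of Fn1 (1433 to 1676) and day 14 had 1613 CPM (1367 to 1890). Sham was 5.01-fold the day 3 level (log2 -2.32, -2.47 to -2.18), and day 3 stood below the other libraries. Fn1 in B cells was 70.0, 41.8, 376 and 1198 CPM, so that the day 14 value is little above that of B cells. F13a1, the A chain of coagulation factor XIII (chr13:36867178-37050244), was at 867 CPM in sham, 236 at day 3, 331 at day 7 and 675 at day 14, a log2 difference of -1.88 (-2.04 to -1.71). Fn1 was detected in 44 of 53 sham and 162 of 352 day 3 cells, and F13a1 in 45 and 157. No sham cell held more than 7.53% of the UMIs of either. A part of the day 3 cells carried few classical markers. In groups of 75 day 3 cells ordered by class II share, described below, F13a1 ran from 460 to 42.8 CPM. Fn1 ran from 472 to 117 CPM in the same groups. The size of both differences therefore depended on which day 3 cells were counted, although each group lay below sham.

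Lyz2 was at 32660 CPM in sham, 16951 at day 3, 11884 at day 7 and 12366 at day 14, a log2 difference of -0.95 (-0.97 to -0.92). Plac8 was at 3083, 6025, 796 and 1539 CPM in the same order, a difference of 0.97. Both lie just under 2-fold, and they differ in direction. Plac8 passed 2-fold without the cells with NK, neutrophil, granule or Cd209a signs (1.03) and without cells with 2 markers of another type (1.13). Chil3, the chitinase-like protein Ym1, was at 2640 CPM in sham and 2471 at day 3. Sham B cells had 3114 CPM of Chil3, more than the sham monocytes, and day 3 B cells had 167, or 538 without the Ly6c2 condition. Nonclassical monocytes had 13192 CPM of Lyz2 in sham and 12851 at day 3, and 1796 and 7181 CPM of Plac8.

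Of 13 transcription factors of the monocyte lineage none was 2-fold higher or lower, with a median of 0.11. Cebpb was at 3166 CPM in sham and 3339 at day 3. Klf2 and Klf4, Kruppel-like factors of quiescent monocytes, were at 1127 and 643 CPM and at 608 and 376 CPM, log2 differences of -0.81 and -0.69. Nr4a1, which is needed for nonclassical monocytes, was at 677 and 442 CPM. Among growth factor receptors, Csf1r, the receptor for M-CSF, was at 358 and 389 CPM, and only Il4ra, the IL-4 receptor alpha chain, passed 2-fold in this list of 10, at 25.7 and 107 CPM. It entered through day 3, and none of the other 9 was higher.

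Genes of matrix and repair went both ways, with 3 of 13 at least 2-fold higher and 4 lower, where 10.5% and 3.89% of all genes were. Of the 11 at 50 CPM or more in sham 2 were higher. Spp1, the secreted osteopontin of scar-associated macrophages, was at 63.4 CPM in sham, 591 at day 3, 2446 at day 7 and 780 at day 14. B cells had 154, 82.9, 1864 and 5670 CPM of Spp1, and 477 CPM at day 3 without the Ly6c2 condition, near the level of the monocytes. Mmp14, a membrane-bound collagenase, had no UMI in sham, 61.4 CPM at day 3 and 90.1 CPM at day 7, at least 10.3-fold higher at day 3. The floor over the 15 sham cells without 2 markers of another type gave a log2 difference of at least 0.77 for Mmp14, under 2-fold. In the macrophage list 3 of 12 were at least 2-fold higher, but only 1 of the 10 at 50 CPM or more in sham. Gpnmb, a lysosomal glycoprotein, was at 11.9 and 111 CPM against 144 and 18.6 CPM in B cells and 159 CPM in day 3 B cells without the Ly6c2 condition, above the monocytes. Fabp5, a fatty acid carrier, was at 170 and 370 CPM. Lgals3 and Ctsb, which macrophages also express strongly, were at 2299 and 3125 CPM and at 689 and 1292 CPM.

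In glycolysis 1 of 14 genes passed 2-fold, none of the 12 at 50 CPM or more in sham did, and the median was 0.07. Gapdh was at 1147 CPM in both libraries, Pkm at 574 and 635 CPM and Gpi1 at 390 and 263 CPM. The gene past 2-fold was the glucose transporter Slc2a1, at 27.7 and 57.1 CPM, and its difference turned to -0.23 once cells with 2 markers of another type were left out. In the oxidative stress and iron list 3 of 10 genes were at least 2-fold higher and none lower, with a median of 0.20. Of the 8 at 50 CPM or more in sham 1 was higher. Fth1, the ferritin heavy chain, was at 4416 CPM in sham, 9688 at day 3, 12059 at day 7 and 4059 at day 14, whereas Ftl1, the light chain, was at 6014, 6196, 6813 and 4206 CPM. Hmox1, which breaks down heme, was at 49.5 and 168 CPM. No p53 target of 4 passed 2-fold, and Cdkn1a, a brake on the cell cycle, was at 432 and 824 CPM. On barcodes thinned to 4000 UMIs 2 of 5 p53 targets were 2-fold higher, and without the Car4 condition 1 of 5 was, with Cdkn1a at 1.02 on the log2 scale. No replication gene of 4 passed 2-fold, with H2afz at 1701 and 1052 CPM, but without the Car4 condition 5 of 7 were 2-fold lower, with a median of -1.04, and from 20 CPM 2 of 7 were. Of 14 immediate early and heat shock genes, which respond to digestion of the tissue too, 2 were higher and none lower, and of the 12 at 50 CPM or more in sham 1 was higher. These were Jun, at 218 and 476 CPM, and Hspa1a, at 25.7 and 86.0 CPM, while Junb was at 2182 and 1701 CPM and Fos at 1727 and 1431 CPM.

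Of 16 Notch and Wnt genes, 5 reached 50 CPM in sham or at day 3, and of these 1 was 2-fold higher and 1 lower. The higher gene entered through day 3, and none of the 4 at 50 CPM or more in sham was higher. Rbpj, the transcription factor of Notch signalling, was at 31.7 CPM in sham, 106 at day 3, 183 at day 7 and 73.8 at day 14. Notch1, a receptor, was at 59.4, 27.6, 77.9 and 105 CPM, and Ctnnb1, which encodes beta-catenin, at 105, 95.02, 158 and 105 CPM. Gsk3b, the kinase that marks beta-catenin for removal, was at 131 and 77.8 CPM in sham and at day 3, a difference of -0.75 that ran from -1.22 to 0.13 over the settings.

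Many of the largest decreases rested on few sham cells. Elane was at 828 CPM in sham and 2.73 at day 3, and a single sham cell held all its sham UMIs. The same held, to 99.4%, 98.99% and 92.7% of their sham UMIs, for Mpo, Ctsg and Prtn3, also granule enzymes. Lyz1, a lysozyme of other cell types, had 93.5% of its sham UMIs in 1 cell. In all, 7 of the 123 lower genes (5.69%) had more than 50% of their sham UMIs in 1 cell. S100a8 was at 1448 CPM in sham and 117 at day 3 and S100a9 at 1590 and 159 CPM. Without the cells with NK, neutrophil, granule or Cd209a signs their log2 differences were -0.69 and -0.03. Scgb1a1, the secretory protein of airway club cells, was at 456 CPM in sham and 68.8 at day 3, against 843 and 131 CPM in B cells, and Wfdc21 at 77.2 and 4.37 CPM. When these cells were left out, 299 of the 331 higher genes and 101 of the 123 lower genes remained past 2-fold, with 346 and 157 past it in all. Fn1 and F13a1 were among the genes that remained.

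Within day 3, the 300 cells with no NK, neutrophil, granule or Cd209a sign were put in order by the share of their UMIs from the interferon list and split into 4 groups of 75. List members are not reported as findings of this order. Ccl2 was at 1082, 700, 1388 and 4321 CPM from the lowest to the highest group, and Il1rn at 174, 123, 259 and 1417 CPM. Both were highest in the top group. Fn1 was at 514, 389, 227 and 59.8 CPM, lower at each step. Lyz2 was at 22385, 24964, 20709 and 9265 CPM and Chil3 at 2508, 4170, 3643 and 1060 CPM, with the top group lowest. Spp1 was at 367, 177, 314 and 1707 CPM. Plac8 was at 5690, 7920, 7091 and 5876 CPM, highest in the middle groups. The median depth was 10299 UMIs in the lowest group and 12365 in the highest.

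When the same cells were ordered by the MHC class II list, F13a1, Chil3, Lyz2 and Plac8 were lowest in the top group. F13a1 was at 358, 460, 230 and 42.8 CPM and Chil3 at 4214, 4414, 2285 and 598 CPM. Lyz2 was at 26610 CPM in the lowest group and 6902 in the highest, and Plac8 at 8317 and 4063 CPM. Ccr2, at 735, 881, 598 and 641 CPM, was lowest in the third group. The summed interferon list was 34249, 33723, 39800 and 38989 CPM and differed by less than 1.5-fold over these groups. These orders were made from the same counts as the genes compared, and are descriptions of 1 library.

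**Figure D5:**
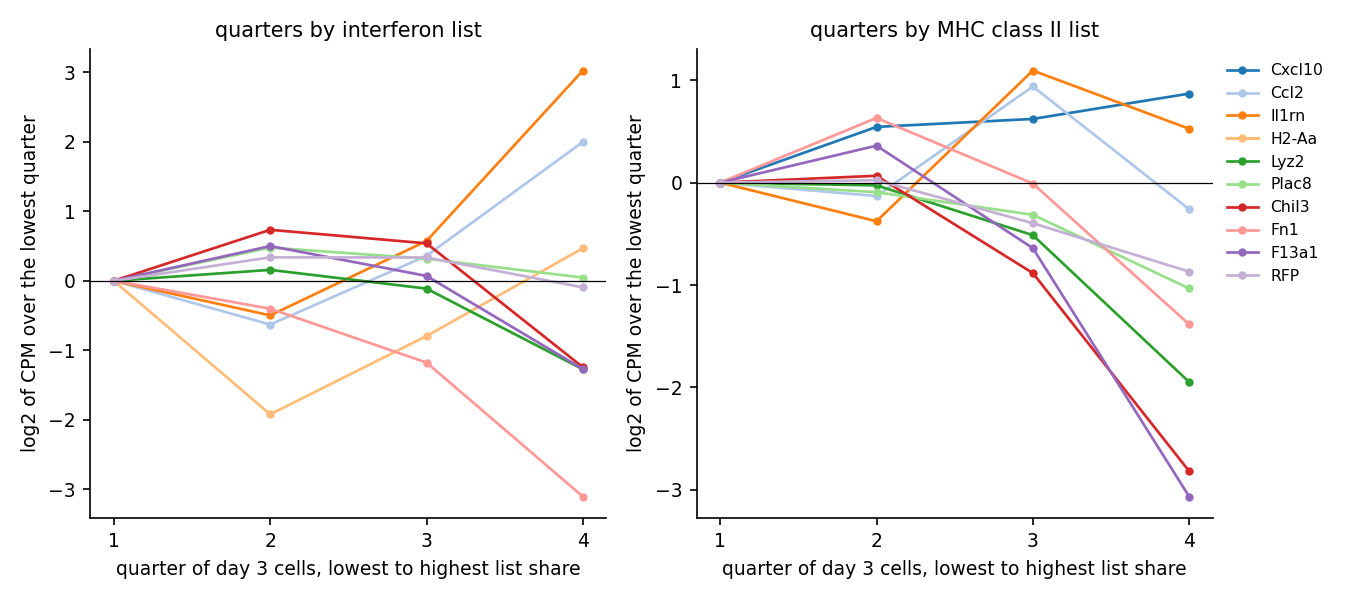
Levels of marker and inflammatory genes in 4 groups of 75 out of 300 day 3 cells ordered by their interferon-list share (left) or MHC class II share (right), as log2 of the CPM over the lowest group. Cxcl10 is left out on the left and H2-Aa on the right because they belong to the ordering list; Ccl2 and Il1rn are highest in the top interferon group, and F13a1, Chil3 and Lyz2 are lowest in the top class II group.

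The reporter, read as the added feature RFP, was found in similar shares of sham and day 3 cells. After thinning to 2000 UMIs it was detected in 38 of 52 sham cells (73.1%, 59.0 to 84.4%) and 255 of 347 day 3 cells (73.5%, 68.5 to 78.1%). At day 7 it was detected in 12 of 44 cells (27.3%, 14.96 to 42.8%) and at day 14 in 4 of 8 (50%, 15.7 to 84.3%). B cells, which should not carry it, had a UMI in 11.8% of sham, 7.95% of day 3, 18.3% of day 7 and 29.8% of day 14 cells, and in 13.8% of sham and 11.6% of day 3 cells without the Ly6c2 condition. The sham and day 3 intervals lay far above B cells, the day 7 interval reached into that of B cells (14.0 to 23.3%), and at day 14 the interval of the 8 cells contains the B cell share. The median depths were 9596 UMIs in sham monocytes and 4262 in sham B cells, and 10468 and 5624 at day 3. Nonclassical monocytes had 70.7% in sham, 84.4% at day 3 and 32.1% at day 7, and day 3 Ly6c2 Ms4a7 cells 70.8%. The level was 1135 CPM in sham, 1192 at day 3, 273 at day 7 and 221 at day 14. It was not even among day 3 cells. Over the groups of 75 cells ordered by class II share the reporter was at 1615, 1642, 1227 and 884.5 CPM, lowest in the top group. Over those ordered by interferon share it was at 1195, 1510, 1508 and 1120 CPM.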

How the data were processed

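Single lung cells were profiled with the 10x 3′ v3.1 chemistry in 5 libraries, 1 per condition. The authors aligned the reads to mm10 with Cell Ranger 6.0.0 and deposited raw UMI counts per gene and barcode, although the headers of the count files name an older version. The added feature RFP was taken as the tdTomato reporter. The 44772 kept barcodes passed the limits on genes, UMIs and mitochondrial share, doublets were not removed, and monocytes were selected on raw counts. No batch is given in the labels. Some genes of the lists are not reported here. The members and gene lists were chosen with earlier results of these data known.

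Counts were summed over selected cells per library and scaled to CPM. With 1 library per condition no test was made. Levels have exact Poisson, shares exact Clopper-Pearson and log2 ratios exact conditional binomial 95% intervals. Comparison was limited to genes reaching 50 CPM in sham or at day 3, without the 12 rule genes, and 2-fold or more was counted. A count of 0 was set to 3 UMIs. Genes were named as the 10 with the largest interval bound in each direction and up to 4 of each list, by level or bound; others, such as Irf7 and Ccl12, were named after their values were seen. The intervals were tested on simulated data. The alternatives were a mitochondrial limit of 10%, 4624 UMIs as the minimum, predicted doublets removed (Scrublet in scanpy 1.11.5, 0.8% per 1000 barcodes), stricter selection, thinning to 4000 UMIs, the mean of cells, median scaling and other minimum levels. Leaving out the cells of other types, B cells without the Ly6c2 condition and dropping the Car4 condition were chosen after seeing the data. Gene positions are those of GRCm38. Intervals came from scipy 1.17.1, tables from pandas 2.3.3 and numpy 2.4.6, and plots from matplotlib 3.10.9, under Python 3.11.15.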

Additional observations from a re-analysis of the deposited data

How the results depend on the processing

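No paired analysis was possible because each condition is 1 library, and for the same reason no replicate could be left out. The share of monocytes depended on the selection. With cells carrying 2 markers of another type removed it was 0.162% in sham and 2.16%, 0.116%, 0.0516% and 0% at days 3, 7, 14 and 28. With at least 5 Ly6c2 and 2 Ccr2 UMIs it was 0.411%, 3.24%, 0.242%, 0.0387% and 0% from sham to day 28. Thinning to 4000 UMIs gave 6.72% at day 3 and 0.0508% at day 14 (3 cells). Dropping the Car4 condition gave 0.942% in sham, and leaving out the cells with NK, neutrophil, granule or Cd209a signs gave 3.75% at day 3 and 0% at day 28, both chosen after the data were seen. With 4624 UMIs as the minimum the day 28 share was 0%. The number of higher genes was 562 from 20 CPM, 130 from 200 CPM and 1019 with no minimum. The number of lower genes was 342, 31 and 4276 in these settings, 286 without cells with 2 markers of another type and 211 on thinned barcodes; leaving out the NK, neutrophil, granule and Cd209a cells gave 157. From 200 CPM 4 interferon gamma and GBP genes were higher, and without cells with 2 markers of another type 10 chemokine ligands were. The higher share among all genes past 2-fold was 72.9%, 60.7% without cells with 2 markers of another type, 64.9% on thinned barcodes, 62.2% from 20 CPM and 19.2% with no minimum. Slc2a1 changed direction without cells with 2 markers of another type, to -0.23 on the log2 scale; the cause was not tested. Without thinning the reporter was detected in 84.9% of sham, 86.6% of day 3 and 50% of day 7 cells. In every setting with a minimum of 50 CPM or less, 43 to 45 of 46 members of the interferon list were past 2-fold. From 200 CPM 35 of 36 were, and the members past 2-fold were not the same in every setting. Of the genes named as 2-fold different, Mpo, Ctsg, S100a8, S100a9, Fabp5, Psmb8, Psmb9, Ly6e, Itgax, Il18, Clec4n, Slc2a1, Hspa1a, Jun, Mmp14, Fth1, Hmox1, Notch1, Ptgs2 and Ccl6 fell under 2-fold in at least 1 setting; the lowest log2 differences of Il18, Fabp5 and Hmox1 were 0.71, 0.45 and 0.56. Ccl2, Ccl5, Ccr1, Cdkn1a, Ctsb, Gbp2, Irf9, Plac8 and Sp100, under 2-fold, passed it in at least 1 setting, as did Gsk3b downwards. The 53 sham and 44 day 7 cells limit the precision of low genes, and 1 cell can set a sham level.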

Other observations

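Gm10709, an annotated gene without a known role, differed between libraries in every cell class compared rather than in the monocytes alone. In the monocytes it was at 1.98 CPM in sham, 351 at day 3, 348 at day 7 and 200 at day 14. In B cells the levels were 0.483, 596, 360 and 157 CPM, and in T cells 0.318, 614, 366 and 136 CPM. The sham level was low in each of these classes, and whether this lies in the mice or in the preparation of the sham library was not tested.

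RNA typical of other cells was found in B cells at levels that differed between the libraries. Whether it was free RNA was not tested. Scgb1a1 was at 843 CPM in sham B cells, 131 at day 3, 7990 at day 7 and 568 at day 14, and in the monocytes at 456, 68.8, 1429 and 538 CPM. Lyz2 in B cells was at 4036, 424, 7542 and 11548 CPM in the same order. A level at day 7 or day 14 in the monocytes is to be read beside these values.

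Ly6c2 was widespread in the day 3 library. In T cells its level was 144 CPM in sham and 1035 at day 3, and in B cells with no condition on Ly6c2 it was 6.91 and 445 CPM. In cells chosen by Treml4 and Ace the level of Ly6c2 was 47.5 CPM in sham, 2796 at day 3, 57.1 at day 7 and 0 at day 14. Ace was at 804, 623, 382 and 997 CPM in these cells and at 25.7, 71.8, 48.7 and 21.1 CPM in the classical ones. The 151 day 3 cells that met every condition of the classical rule except that on Treml4 had 3653 CPM of Ly6c2 and 747 CPM of Csf1r.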
